A study of Triticum aestivum with 12 samples.

Results

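The effect of putrescine (PUT) on the 5mC methylation profile of wheat leaves under white (W) light was described at 363767 genomic loci, out of 11509120 loci in the deposited table and 539307 loci that entered the fit. These loci were kept because their read count was above 10 in at least 2 libraries of W light plants given PUT (WP) or in at least 2 libraries of untreated W light plants (WC). All plants were winter wheat (Triticum aestivum) of the variety Mv Beres, grown in hydroponics with 16 h of light and 8 h of dark at a photon flux density of 250 µmol per m2 and s. WP plants got 0.5 mM PUT in the solution for 7 days, starting 7 days after germination, and WC plants got none over the same 7 days. Blue light made up 32.32% of the W spectrum, with green at 45.71%, and the share of red was 20.71%. Plants with PUT (BP) and without it (BC) under blue (B) light, in which blue made up 82.14%, served only for comparison. Each of the 4 groups had 3 libraries. The study describes biological replicates, and the labels do not name the pot or plant of each library, so p-values refer to these libraries. For single loci the fit shares the spread across loci. An SE or p-value there thus does not measure the spread of the libraries at that locus alone.

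Cytosine methylation (5mC) in plants lies mostly on transposons and other repeats, which make up most of the large wheat genome, and part of the genes carry it as well. In methylated DNA immunoprecipitation sequencing (MeDIP-seq), an antibody to 5mC pulls down sheared DNA, so a locus with many methylated cytosines gathers more reads. PUT is the diamine from which plants make spermidine and spermine, and the synthesis of these polyamines uses S-adenosylmethionine, which is also the methyl donor for DNA methylation. Bread wheat is hexaploid and carries A, B and D subgenomes with 7 chromosomes each, so that 6A, 6B and 6D, for example, are homoeologous copies.

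The total count was 18025436, 17097608 and 17339219 in the WP libraries and 15812048, 18824815 and 18496943 in the WC libraries. A count was present at 92.0, 87.3 and 81.9% of the kept loci in the WP libraries, against 63.5, 86.6 and 90.1% in the WC libraries. WC replicate 1 thus stood apart, with its reads piled on fewer loci: its mean count per locus with a count was 10.1, while that of the other 5 W libraries ranged from 5.41 to 7.05. It also put 15.5% of its counts into the outer 10% of the length at each chromosome end and 3.29% into loci overlapping a protein-coding gene. The other 5 W libraries put 13.6 to 14.3% and 1.92 to 2.38% there, and the 3 BC libraries put 15.7% and 3.29 to 3.40% there. At the loci that passed the filter in BP or BC, WC replicate 1 correlated with the other W libraries at r = 0.24 to 0.30. Pairs among those other libraries ran from 0.35 (WP replicate 3 and WC replicate 2) to 0.51 (WP replicate 1 and WC replicate 3). Shares of called loci are therefore also given without WC replicate 1. It was left out of the fit there, but its counts still entered the filter and the mean count of a locus.

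**Figure D1:**
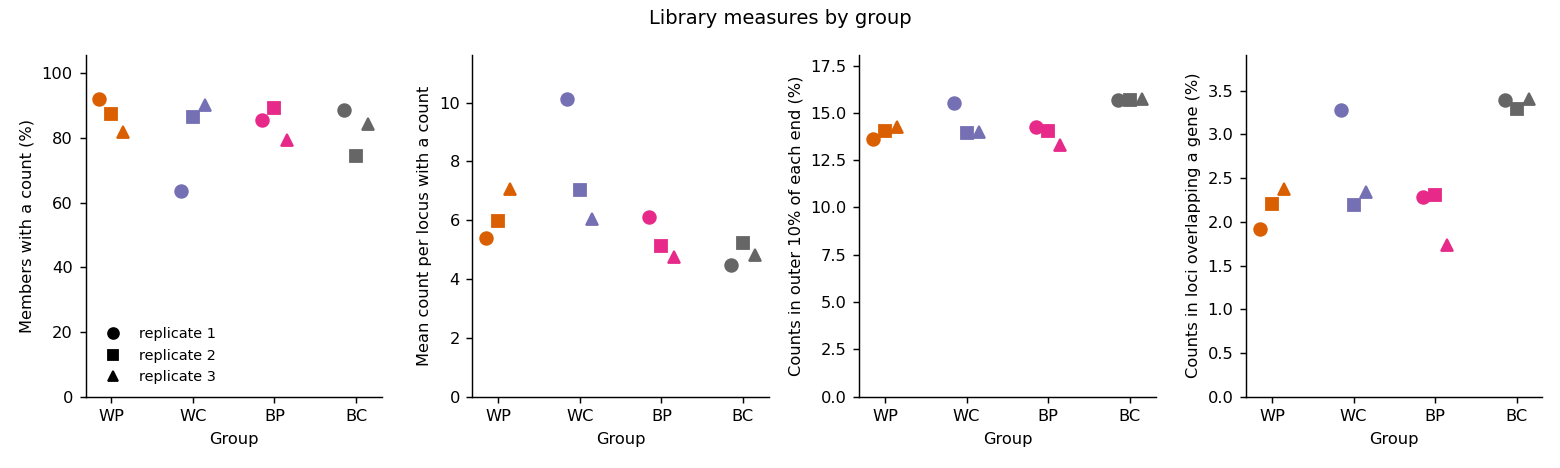
Percentage of kept loci with a count, mean count per locus with a count, and percentage of counts in the outer 10% of each chromosome end and in loci overlapping a gene, for the libraries of WP, WC, BP and BC (1 point per library). WC replicate 1 has a count at 63.5% of the loci and lies near the BC libraries in the 2 right panels.

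At 5 loci near the ends of chromosomes 6A, 6B and 6D, all deeply covered, PUT leaves carried more reads. Their counts were higher in every WP library than in every WC library, by 4.77- to 8.35-fold, and 4 of them passed an adjusted p below 0.05 over all 539307 fitted loci (edgeR quasi-likelihood test, Benjamini-Hochberg adjustment). They were the 5 loci called higher among the 151 kept loci with a mean count of 100 or more over the 6 W libraries. Of these 151, 10 had every WP library above every WC library and 7 had every WP library below every WC library, while 6.98 and 5.89% of all kept loci were apart in these ways. By reference annotation, 4 of them lie outside protein-coding genes.

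The 6D locus spans 9104670 to 9106833 of chromosome 6D in the RefSeq v2.1 assembly and is 2164 bp long. Its read counts were 142, 336 and 423 in WP leaves and 25, 56 and 64 in WC leaves. The lowest WP library, at 142 reads, was above the highest WC library, at 64 reads. The log2 fold change was 2.75 ± 0.38 (SE, adjusted p = 9.75e-08 in edgeR). The nearest protein-coding gene, LOC123143006, is 15088 bp away.

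On 6B a locus at 18132046 to 18136039 had 119, 338 and 389 reads in WP leaves, against 34, 15 and 85 reads in WC leaves. It lies within the gene LOC123138634, and its log2 fold change was 2.77 ± 0.39 (SE, edgeR adjusted p = 1.38e-07). A second 6B locus, 15961 bp farther on at 18152001 to 18156206, had 77, 163 and 321 reads in WP leaves and 12, 27 and 33 reads in WC leaves. Both groups were apart at each of the 2 loci, and the second had the highest fold of the 5 (log2 3.06 ± 0.50 SE, edgeR adjusted p = 0.000149).

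On 6A the locus at 9974949 to 9979051 had 52, 147 and 504 reads in WP leaves, against 28, 25 and 46 reads in WC leaves. WP replicate 1 was only just above WC replicate 3 there. The log2 fold change was 2.93 ± 0.40 (SE, edgeR adjusted p = 9.75e-08). This SE rests on spread shared across loci, while the WP counts there ran from 52 to 504. Its neighbour at 9941731 to 9947175, separated by 27773 bp, had 80, 241 and 201 reads in WP leaves and 9, 56 and 53 reads in WC leaves. That locus met the thresholds of p below 0.01 and log2 fold change above 1.5 but not the adjusted one (log2 2.25 ± 0.46 SE, edgeR adjusted p = 0.0870).

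The 5 loci also varied together. Over the 12 libraries, their log2 counts, scaled to library depth, correlated pairwise at r = 0.84 to 0.95, as a description of libraries that share their depth. All 5 were picked for WP counts above all WC counts, so part of this correlation follows from the choice. In both lights the order of the groups was the same. Under B light the 6D locus had 445, 318 and 166 reads in BP leaves and 72, 69 and 163 reads in BC leaves, and at all 5 loci every BP library was above every BC library. The fold under B light was 2.54 to 4.17. The difference between the effects in W and B light did not pass the test at any of the 5 (edgeR interaction, lowest adjusted p = 0.961). Reads of near-identical copies may have been shared among loci on these homoeologous chromosomes. The handling of multiply mapping reads is not given in the sources used here, and sequence similarity among the 5 loci was not checked.

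**Figure D2:**
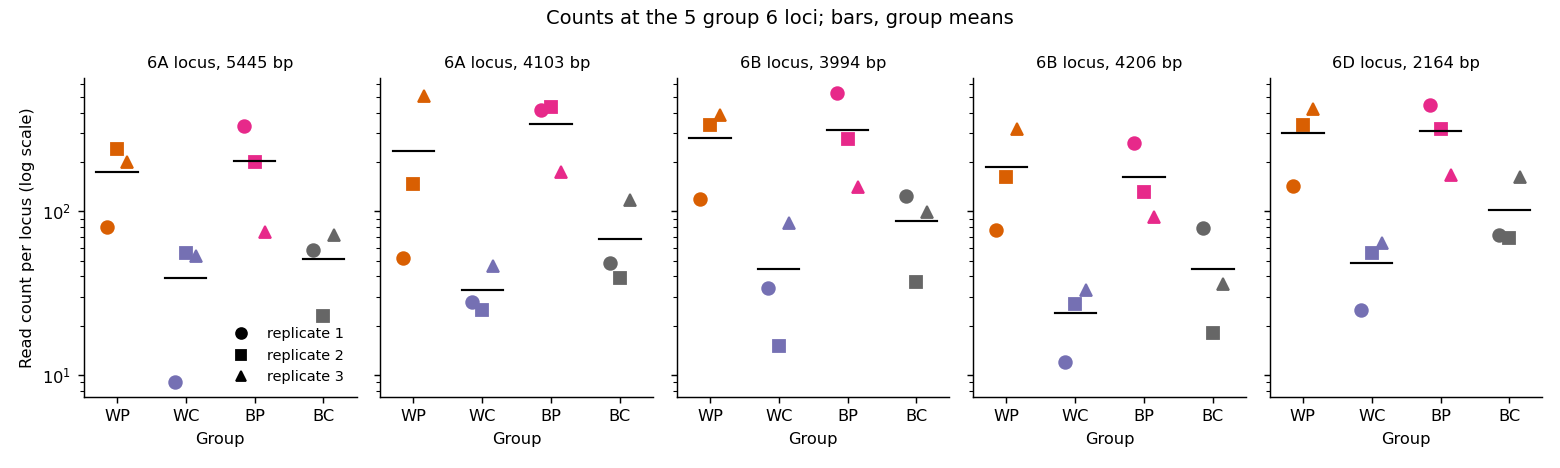
Read counts on a log axis at the 5 loci of chromosomes 6A, 6B and 6D in the libraries of WP, WC, BP and BC (points, libraries; bars, group means). Each WP point lies above each WC point of the same locus, and each BP point above each BC point.

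These calls were not kept under every alternative. None of the 5 loci passed the adjusted threshold with the likelihood ratio test of edgeR (log2 fold changes 2.25 to 3.06, adjusted p = 0.117 to 0.183) or in a fit of the 6 W libraries alone (log2 2.25 to 3.06, edgeR adjusted p = 0.968). The same held with a count above 20 as the filter (log2 2.21 to 3.01, edgeR adjusted p = 0.689 to 0.819) and when WC replicate 1 was left out of both the filter and the fit (log2 1.69 to 2.70, adjusted p = 0.391 to 0.746), while 4 of the 5 passed in DESeq2 (adjusted p = 0.000582 to 0.0502 over the 5). Without WC replicate 1, log2 fold changes were 1.76 to 2.77, and 3 of the 5 passed. Without WP replicate 3, the fold of the 6A locus at 9974949 was 1.74 on the log2 scale and 2 of the 5 loci passed, at 6B and 6D.

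One further locus passed the adjusted threshold, on chromosome 4B at 592421107 to 592422674. It had 5055, 3956 and 3825 reads in WP leaves and 6318, 5868 and 4801 reads in WC leaves. These groups overlapped, and the log2 fold change was small (-0.25 ± 0.04 SE, edgeR adjusted p = 0.000522). That SE, too, rests on spread shared across loci. It was not below the adjusted threshold without WP replicate 2, WP replicate 3, WC replicate 1 or WC replicate 2 (adjusted p = 0.305 to 0.854). Nor did it pass in edgeR with the likelihood ratio test (adjusted p = 0.969), a count above 20 (0.978), the 6 W libraries alone (0.968) or the filter on BP and BC only (0.573). DESeq2 gave no p-value for it. It passed with the other scalings, a count above 5, no filter, the replicate number as a block, and without WP replicate 1 or WC replicate 3.

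Across all kept loci, 3986 were called higher in WP and 1616 lower (edgeR p below 0.01 and absolute log2 fold change above 1.5), which is 1.10 and 0.444% of them. Over all fitted loci the same thresholds called 1.25% higher and 0.436% lower, so the kept loci were close to the background in both directions. Of the calls, 71.2% were higher. This share depended on the scaling: it was 54.1% with library sizes alone, 62.1% with RLE factors and 60.4% with library sizes over every locus. The median log2 fold change over all fitted loci was 0.17 with the TMM factors used here and 0.02 with library sizes alone. Without WC replicate 1, 2715 kept loci were called higher and 1437 lower, and 1652 and 905 of these were among the calls made with all libraries. Without WC replicate 3, 8441 were called higher, without WP replicate 2, 2584 were called higher, and without WP replicate 3, 813 were called lower.

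Most calls rested on loci with few reads that were absent from a whole group. Of the loci called higher, 74.2% had no read in any WC library, and the median count was 12, 13 and 14 in the WP libraries. Of those called lower, 83.3% had no read in any WP library, and the median count was 15, 14 and 11 in the WC libraries. The filter passed 134801 loci through WP alone and 141136 through WC alone, and these held 3969 and 1615 of the calls. The filter itself thus favours loci that are higher in the group that let them pass. Among the 87830 loci that passed in both groups, 17 were called higher and 1 lower.

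The share called varied with depth and length. A locus with a mean count under 5 passes the filter only when nearly all of its reads lie in 1 group, and such loci, given as a description, were called higher in 4.94% and lower in 1.82% of cases. Loci with a mean count of 10 to under 20 were called higher in 0.261% and lower in 0.0790% of cases, those of 20 to under 100 in 0.157 and 0.0115%, and the 151 of 100 or more in 3.31 and 0%. Without WC replicate 1 the loci with a mean count under 5 were called higher in 1.12% and lower in 2.83% of cases, so here the direction of the excess turned with that library. Its counts still entered the filter and the mean count that define this class. By length, 1.80% of the loci from 500 to under 1000 bp were called higher and 1.11% lower, against 0.253 and 0.0477% of the loci of 5000 bp or more and 0.310 and 0.155% of the 645 loci under 500 bp. Leaving out WC replicate 1 brought the loci from 500 to under 1000 bp to 0.511% higher and 0.698% lower, so the excess turned here as well. In loci from 2000 to under 5000 bp, the largest class with 221233 loci, the shares were 0.808% higher and 0.274% lower with all libraries and 0.763 and 0.296% without it.

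**Figure D3:**
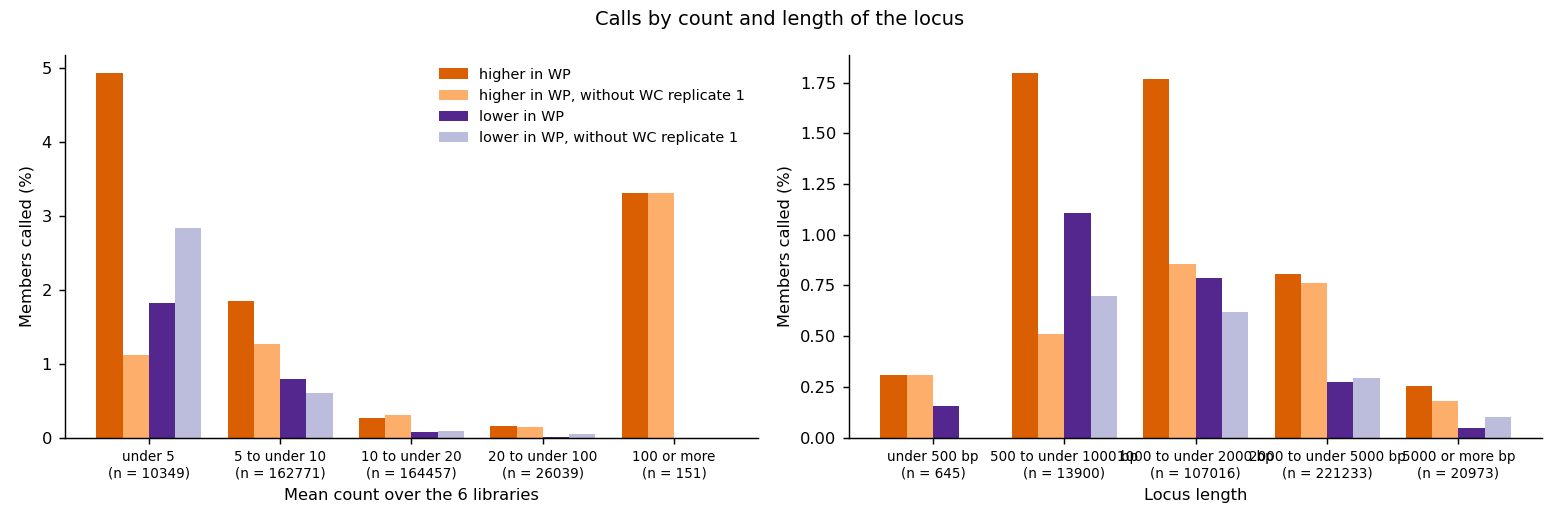
Percentage of kept loci called higher or lower in WP than in WC by mean count over the 6 W libraries (left) and by locus length (right), with all libraries and without WC replicate 1 (left out of the fit only). The bars under a mean count of 5, at 4.94% higher, hold loci that the filter keeps only when nearly all reads lie in 1 group, and the bar at 100 or more stands for the 5 loci of 6A, 6B and 6D among 151.

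By position along the chromosome, 0.917% of the 4255 loci within 10 Mb of an end were called higher and 0.259% lower. From 10 to under 20 Mb, 1.16% of 4759 loci were called higher and 0.609% lower, and at 100 Mb or more from an end, 1.11% of 292592 loci were called higher and 0.442% lower. These shares without WC replicate 1 were 0.776 and 0.306% within 10 Mb, 0.820 and 0.525% from 10 to under 20 Mb, and 0.749 and 0.399% at 100 Mb or more. The 4 loci higher at an adjusted p below 0.05 in edgeR all lie within 20 Mb of an end. Of the loci called higher, 1.00% had another such locus within 10000 bp, and of those called lower 0.124%. Among all kept loci 57.4% had another kept locus that near. Kept loci are far denser than calls, so these shares do not tell whether calls cluster. By subgenome, 1.18, 1.10 and 1.01% of the loci of A, B and D were called higher and 0.478, 0.442 and 0.414% lower. The same shares without WC replicate 1 were 0.835, 0.739 and 0.667% higher and 0.410, 0.410 and 0.365% lower.

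The 10 loci per direction with the smallest p and no overlap between WP and WC included the 5 above. Of the other 5 called higher, a locus lay on 1D at 339212386 to 339216802. It had 17, 37 and 21 reads in WP leaves and none in WC leaves. This is 27.9-fold higher when WC is set to 3 reads over its libraries, and the fold depends on that floor. A locus on 5B at 234587922 to 234589734 had 6, 22 and 47 reads in WP leaves and none in WC leaves, 27.4-fold higher with the same floor. Both loci had reads under B light, with 14, 9 and 3 reads in BP and 27, 10 and 6 reads in BC leaves at the 1D locus. Of those called lower, the locus with the smallest p lay on 4A at 750765030 to 750769419, 753 bp from LOC123084602. It had no reads in WP leaves and 20, 32 and 10 reads in WC leaves, 18.6-fold lower with WP set to that floor. None of these 3 loci passed the adjusted threshold in edgeR (adjusted p = 0.228 to 0.476), and all 3 passed in DESeq2 (adjusted p = 0.0308, 0.0449 and 0.0408 for the 1D, 5B and 4A loci). Each passed the filter only through the group where it was higher, and was picked for a small p and no overlap. The DESeq2 result on the same counts is thus no separate support.

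Protein-coding genes were overlapped by 8050 kept loci, in 6925 genes out of 102009. A locus called higher lay in 107 genes and one called lower in 29, or 1.55 and 0.419% of the genes with a kept locus. Counted as loci, 1.32% of those overlapping a gene were called higher and 0.348% lower, against 1.09 and 0.448% of the loci over 3000 bp from a gene. Without WC replicate 1 the overlapping loci called higher numbered 64 in place of 106, and the shares called higher were 0.795% in loci overlapping a gene and 0.739% in loci over 3000 bp away. Of the 12 genes per direction with the smallest p, 5 had a product name in the shortened supplementary table of the study, whose genes were picked on these samples. A locus reaching into LOC123137591, annotated as a UV radiation resistance-associated gene protein-like, a family known in animals for autophagy and endosome traffic, had 0, 15 and 35 reads in WP leaves and none in WC leaves. A locus at the end of LOC123143509, whose product is named PDX2, a probable subunit of the vitamin B6-forming pyridoxal phosphate synthase, had no reads in WP leaves and 11, 0 and 29 reads in WC leaves. A locus touching LOC123167034, cysteine-rich receptor-like protein kinase 6, had 3, 0 and 0 reads in WP leaves and 0, 32 and 24 reads in WC leaves. In each of these 3 genes a library of the group with reads had none itself, and none passed the adjusted threshold (edgeR adjusted p = 0.542 to 0.548). The remaining 2 with a name were uncharacterized proteins.

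Gene lists matched by product name held few genes, as names were at hand for 1007 genes of the shortened supplementary table of the study. Of these, 223 had a kept locus, against 6925 of all 102009 protein-coding genes. Genes without a product name could not enter the lists. Chlorophyll a-b binding and photosystem proteins had 4 genes with a kept locus, histone modification (lysine methyltransferases and demethylases) 4 of 8, and stress and storage proteins 2 of 14. The words for light perception matched 1 gene with a kept locus, a PHYTOCHROME-DEPENDENT LATE-FLOWERING-like protein. None of these 11 genes had a called locus in either direction. Of all genes with a kept locus, 1.55% had one called higher and 0.419% one called lower, so 11 genes are too few to show a difference. Of the 4 genes of polyamine metabolism (2), of the 5mC machinery and methyl donor cycle (1) and of the small RNA pathway (1), none had a kept locus.

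The summed counts of the chromosomes differed little between WP and WC. Log2 fold changes ranged from -0.08 on 4B to 0.03 on 5A, and none of the 21 chromosomes passed an adjusted p below 0.05 (edgeR, lowest adjusted p = 0.750). The share of loci called higher ran from 0.909% on 3D to 1.33% on 6A, and that called lower from 0.326% on 6D to 0.554% on 4B. Without WC replicate 1 the share called higher ran from 0.587% on 2D, which had 1.04% with all libraries, to 0.975% on 5A, and 7D had 0.589% in place of 1.09%. The share called lower then ran from 0.301% on 2D to 0.554% on 4B. Of 1433 windows of 10 Mb, none passed an adjusted p below 0.05 in edgeR, 62 had an unadjusted p below 0.05, and 91.8% had an absolute log2 fold change below 0.1. The windows with the smallest p did not pass: 190 to 200 Mb of 5A (log2 0.14 ± 0.04 SE), 80 to 90 Mb of 7D (0.08 ± 0.02) and 200 to 210 Mb of 5A (0.13 ± 0.04) on the higher side, and 450 to 460 Mb of 1B (-0.08 ± 0.02), 600 to 610 Mb of 3B (-0.08 ± 0.03) and 20 to 30 Mb of 4B (-0.12 ± 0.04) on the lower side, all with adjusted p = 0.815.

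**Figure D4:**
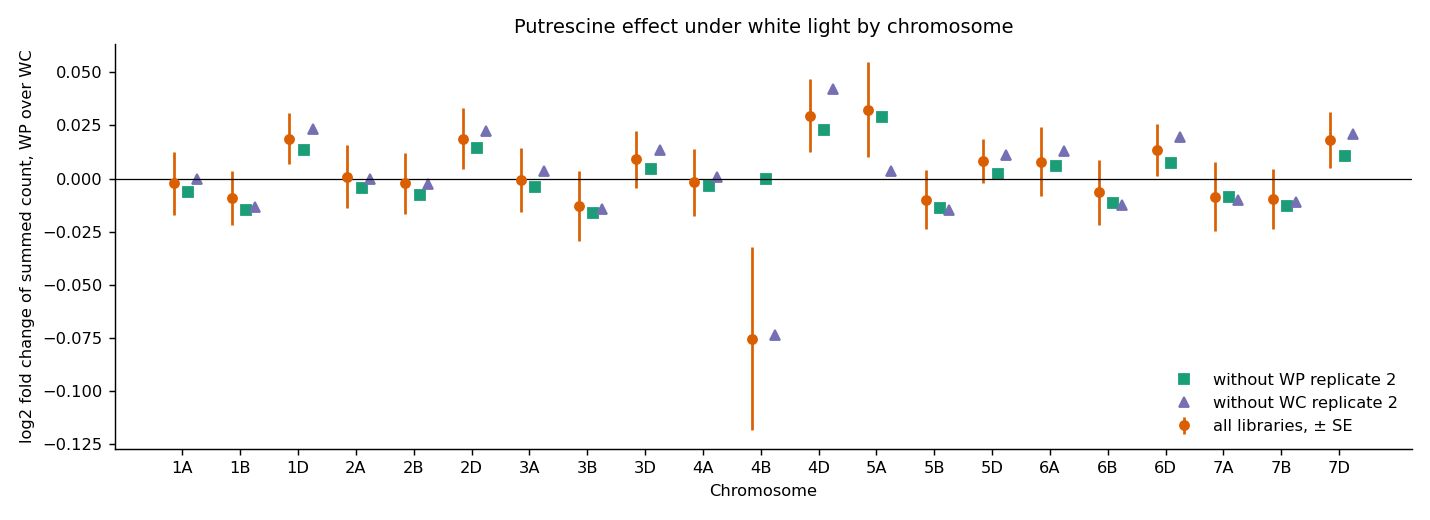
Log2 fold change of the summed count, WP over WC, for the 21 chromosomes (circles with SE, all libraries; squares, without WP replicate 2; triangles, without WC replicate 2). The lowest value, -0.08 on 4B, moves to nearly 0 without WP replicate 2, and the highest, 0.03 on 5A, moves close to 0 without WC replicate 2.

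The 2 extreme chromosomes each rested on a single library. Over the whole of 4B, WP replicate 2 lay at a median log2 deviation of -0.22 from the median of the 12 libraries, or 85.8% of the typical count, and was the lowest library in 66 of 68 windows. Over the first 240 Mb of 5A, WC replicate 2 lay at -0.23, or 85.0%, and was the lowest library in all 24 windows. Beyond 270 Mb of 5A its deviation was -0.02. The windows of 5A and 4B named above for their small p lie in the stretches where these libraries were low. Of the 126 medians by chromosome and W library, 125 were within 0.1 of 0, the exception being WP replicate 2 on 4B. The cause of these shifts was not tested.

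**Figure D5:**
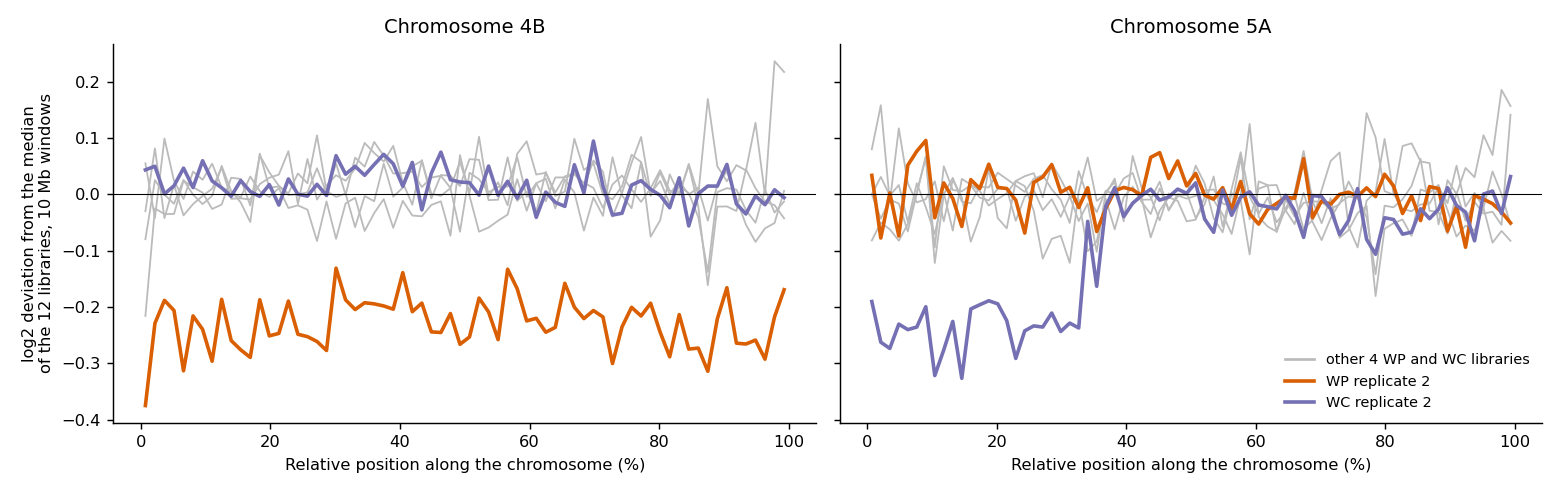
Log2 deviation of the count in 10 Mb windows from the median of the 12 libraries, along chromosomes 4B and 5A by relative position (lines, the 6 W libraries). WP replicate 2 runs near -0.22 along all of 4B, and WC replicate 2 runs near -0.23 along the first part of 5A before it steps up to the other libraries.

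For library shares the exact permutation test, two-sided, cannot go below p = 0.1 with 3 against 3 libraries. Of 25 shares and library measures, that of subgenome B alone did not overlap. It held 34.49, 33.91 and 34.48% of counts in WP leaves and 34.95, 34.64 and 34.63% in WC leaves (exact permutation p = 0.1, adjusted p = 0.795 over the 25). WP replicate 2, the library with the low 4B, had the lowest value, and without it the difference was -0.26 percentage points in place of -0.45 (exact permutation p = 0.2). The outer 10% of each end held 14.0 ± 0.31% of counts in WP leaves and 14.5 ± 0.90% in WC leaves (SD, n = 3 each, exact permutation p = 0.6), and this difference turned to 0.015 percentage points higher in WP without WC replicate 1. Loci under 500 bp held 10.7 ± 1.76% in WP leaves and 12.9 ± 2.73% in WC leaves (SD, n = 3 each, exact permutation p = 0.4). This difference of -2.19 percentage points was -0.62 without WC replicate 1. In the fitted loci alone it was -0.07 (exact permutation p = 0.1, the lowest possible). The filter leaves few loci that short, so these values are not comparable in size.

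Whether PUT acted otherwise under W than under B light was tested as an interaction at the same loci. At 3274 kept loci the difference between the effects passed p below 0.01 and an absolute log2 value above 1.5, which is 0.900% of them, against 1.01% of all fitted loci. These thresholds were passed by 3169 loci without WC replicate 1. The interaction passed an adjusted p below 0.05 at 2 loci in edgeR, and at 1 without WC replicate 1.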

How the data were processed

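MeDIP-seq of leaf DNA gave 12 libraries, of which 6 (WP and WC) carry the main comparison and 6 (BP and BC) enter the fit. Per the study's methods, the authors used cutadapt and Trim Galore for trimming, BWA for alignment to IWGSC CS RefSeq v2.1, and bedtools to define covered loci and their reads. The deposited values are raw counts per locus and library. Pooled input libraries were not used here, so copy number and antibody enrichment are not separated. Counts were fitted with edgeR 4.0.16 (R 4.3.3): TMM factors, trended dispersion and the quasi-likelihood F test on the loci where 2 or more libraries of a group exceeded a count of 10, with the 4 groups as coefficients and p adjusted over all fitted loci. Summed counts of chromosomes and 10 Mb windows were fitted alike, chromosomes without TMM. Folds against a group at 0 use a floor of 3 reads. Named loci were those at adjusted p below 0.05 and the 10 per direction with the smallest p and no overlap of WP and WC. Named genes were the 12 per direction whose overlapping called locus had the smallest p. The members, lists and rules were chosen with earlier results of these data known. In counts simulated for 30000 loci, 79% of WP against WC changes of log2 size 5 and 9.5% of size 2 were called. In the same runs 0.658 and 0.587% of the unchanged loci were called. The simulation used 1 dispersion for all loci and no filter on the simulated counts, unlike the data. Alternatives were DESeq2 1.42.0, other scalings and filters, and leaving out libraries. Intersections used bedtools 2.31.1.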

Additional observations from a re-analysis of the deposited data

Results flagged for a closer look

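At 2 loci the effect of PUT differed between W and B light by the edgeR interaction test at an adjusted p below 0.05. The first lies at the start of the assembled chromosome 4A (1 to 96). It had 86, 184 and 125 reads in WP, 53, 184 and 86 in WC, 83, 978 and 3077 in BP and 79, 730 and 165 in BC leaves, an interaction of -1.62 on the log2 scale (edgeR adjusted p = 0.0114). The second is the 4B locus at 592421107, with 5055, 3956 and 3825 reads in WP, 6318, 5868 and 4801 in WC, 6152, 5434 and 26466 in BP and 8176, 15541 and 8557 in BC leaves, an interaction of -0.43 (edgeR adjusted p = 8.44e-07). At both loci BP replicate 3 held the highest count of the 12 libraries. No locus passed the interaction in edgeR at an adjusted p below 0.05 with the replicate block, the likelihood ratio test, the filter on BP and BC only, a count above 20, or without WP replicate 3, nor when WC replicate 1 was left out of both the filter and the fit.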

How the results depend on the processing

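Of the 363767 kept loci, 3986 were called higher and 1616 lower in WP, and the interaction called 3274. With the likelihood ratio test these numbers were 7580, 6616 and 7850, and with DESeq2 7250 were called higher and 4715 lower. With library size alone 2788 were called lower. A count above 5 in place of 10 gave 12137 higher and 3256 lower, a count above 20 gave 220 and 98, and no filter gave 17278 and 4728, with the dispersion trend taken from every 20th locus. Filtering on BP and BC only gave 896 lower. The 6 W libraries alone gave 1328 and 406. At an adjusted p below 0.05, 4 were higher and 1 lower in edgeR, against 169 and 33 in DESeq2. Leaving out 1 W library gave 2584 (without WP replicate 2) to 8441 (without WC replicate 3) higher, 813 (without WP replicate 3) to 1796 (without WP replicate 1) lower, and 2371 (without WP replicate 3) to 6280 (without WC replicate 3) for the interaction. Filtering and fitting without WC replicate 1, chosen after seeing the data, gave 2301 higher. Of the 285082 loci kept there, 14955 had an unadjusted p below 0.05 and none passed the adjusted threshold in edgeR. The cause of these changes was not tested.

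With the replicate number as a block (replicate block), 2519 loci were higher and 741 lower, and 1733 were called for the interaction, while no chromosome or window passed. The deviations of same-numbered WP and WC libraries correlated at r = -0.013, 0.0011 and -0.015 over the kept loci. Most kept loci hold few reads, which limits r, so these values cannot tell whether same-numbered libraries belong together. Over the windows, which hold more reads, r was -0.55, -0.12 and -0.28 for the same-numbered pairs. Pairs of different number had r = -0.37 to 0.48 there. Whether the replicate number marks a shared batch was not tested.

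No chromosome and no window passed for WP against WC under any alternative run. The interaction passed in 161 windows without WC replicate 1 and in 0 when any other single W library was left out. The WP minus WC difference in the outer 10% ranged from -0.77 to 0.015 percentage points over the left-out libraries. The difference in loci overlapping a gene turned to 0.14 in the fitted loci alone. At a depth of 10 reads per locus, single loci with small folds were not detectable.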

Other observations

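Counts on the mitochondrial genome, which lies outside the 21 chromosomes compared, were 76, 57 and 70 in the WP libraries and 164, 96 and 104 in the WC libraries. The groups did not overlap, and WC replicate 1 was the highest of the 6 (two-sided exact permutation tests of 3 against 3 cannot go below 0.1). The BP libraries had 91, 131 and 151 and the BC libraries 277, 241 and 237.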
